A study of Mus musculus with 3 samples.

Results

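The 200 genes described here were chosen by how their reads were listed. Each deposited table gave a gene up to 2 rows, one under an Ensembl identifier and one under the reference name Genome, and the members are the genes with the largest percentage of counts on Genome rows (the Genome share). Counts were summed per symbol and chromosome over the libraries, and a minimum of 300 counts was set. Symbols that begin with Zfp, Slc, Hist, Mir, Sno, Dnmt, Tet, mt- or Gm, and the genes Jarid2, Airn and Kcnq1ot1, had been left out by the same selection. The members are 200 of 8762 genes that remained, and of 26887 genes listed in all. Because the members were selected on the Genome share, that share is given as a description only. It ran from 87.6% to 100% in the members with a median of 93.2%, and the median of the 8762 genes was 21.7%. The last gene inside was 2610021K21Rik at 87.5767% and the first outside was Bphl at 87.5706%, so the edge of the selection is not a natural gap. Neither the labels nor the methods text used here say which reads a Genome row holds.

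Most mammalian genes are copied into a precursor RNA whose introns are cut out by the spliceosome, while the exons are joined into the mature RNA. Introns can be far longer than the exons around them, above all in very long genes for cell adhesion, synapses and signalling, several of which coincide with chromosomal fragile sites. Introns also house other genes: small nucleolar RNAs (snoRNAs), which guide chemical modification of ribosomal RNA, and small Cajal body RNAs, which do the same for spliceosomal RNA, are mostly released from introns of host genes.

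RNA interactome analysis and sequencing (RIA-seq) recovers RNA held together with a chosen RNA in fixed cells. Unmodified mouse E14 embryonic stem (ES) cells of strain 129/Ola were fixed with 1% glutaraldehyde for 10 min, and antisense oligonucleotides against one RNA were hybridized at 37 °C overnight. Oligonucleotides against Actb (β-actin mRNA) gave the control, Actb RIA-seq. Those against Malat1, a nuclear long noncoding RNA, gave Malat1 RIA-seq, and those against Tfrc, the transferrin receptor mRNA, gave Tfrc RIA-seq. All groups share the cell line and the fixation, and each of the 3 conditions has 1 library. There is therefore no spread between replicates and no test between conditions. Intervals beside folds are at the 95% level and cover counting error only. The handling of PCR copies is not given in the sources used here, and the intervals do not cover copies counted as separate reads. Below, the Actb library is the control, the Malat1/Actb and Tfrc/Actb folds are ratios of shares of the library total between each target library and the control, and the Malat1/Tfrc fold is that between the target libraries. Medians and counts over all members use both kinds of count summed unless Genome counts are named, whereas the fold of a single member uses its Genome counts, also as a share of the library total. Counts given as 3 values are in the order Actb, Malat1, Tfrc.

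The libraries held between 10078439 and 14553941 counts. Genome rows took 5.25% of them in the Actb library, 19.04% in the Malat1 library and 15.1% in the Tfrc library, and the folds of most members below move with this difference. All 10 ES cell markers, among them Pou5f1 and Nanog, reached at least 1 CPM, a count scaled to a library of 1000000, in each library, with summed levels of 2947 to 4068 CPM. Marker sets of 4 other cell types summed to between 2.21 and 33.6 CPM. In bulk RNA, fewer cells of a type and less RNA per cell cannot be told apart.

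Among the members, 7 are small RNAs with 1 exon, 4 of them close together on chromosome 9. Sequences of 6 are shown so that their letters can be set beside the boxes known in such RNAs. They were read 5′ to 3′ from NCBIM37, with capitals for the boxes that snoRNA proteins bind: TGATGA (C box, first match) followed by CTGA (D box, last match), or, where that pair was absent, ACA with 2 to 4 bases after it.
snoZ40: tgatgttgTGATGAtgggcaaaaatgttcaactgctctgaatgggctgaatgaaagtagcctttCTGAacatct
SNORA25: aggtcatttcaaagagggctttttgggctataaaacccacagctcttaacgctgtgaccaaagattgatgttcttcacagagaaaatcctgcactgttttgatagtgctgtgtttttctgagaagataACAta
Scarna9: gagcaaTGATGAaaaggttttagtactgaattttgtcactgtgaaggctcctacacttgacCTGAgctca
snoU2_19: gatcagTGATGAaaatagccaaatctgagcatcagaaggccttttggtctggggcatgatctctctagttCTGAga
Snord104: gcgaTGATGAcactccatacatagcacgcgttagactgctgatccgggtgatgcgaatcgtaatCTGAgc
snoU83B: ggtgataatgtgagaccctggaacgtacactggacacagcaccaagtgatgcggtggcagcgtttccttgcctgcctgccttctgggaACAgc
The C and D pair was found in 4 of the 6, and in 21.2% of 1552 annotated snoRNA genes searched in the same way on the sense strand. The ACA form without that pair was found in SNORA25 and snoU83B, and in 42.1% of the annotated snoRNA genes. A match describes the letters, is not evidence of a bound protein and does not settle the class: by its name snoU83B belongs to the C/D box RNAs, although these letters found no such pair in it.

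The small RNAs had no Ensembl-ID count in any library, so their Genome share was 100%. snoZ40 (chr9:15119966-15120039, plus strand) and SNORA25 (chr9:15121120-15121252, plus strand) lie in introns of Taf1d, which encodes a subunit of the factor that starts ribosomal RNA transcription. snoZ40 had 1147 Genome counts in the Actb library, 3488 in the Malat1 library and 9181 in the Tfrc library. SNORA25 had 48, 183 and 168 in the same order, so these small RNAs of the same host differed in which target library was higher. As a share of the library total, snoZ40 was 5.72-fold (5.38 to 6.08) higher in the Tfrc library than in the control and 3.14-fold (2.94 to 3.36) higher in the Malat1 library. Its Malat1/Tfrc fold was 0.549 (0.528 to 0.57), whereas that of SNORA25 was 1.57 (1.28 to 1.94). The rows listed under Taf1d itself held 739, 2818 and 4155 Genome counts and 538, 1254 and 1562 Ensembl-ID counts. Reads of a small RNA and of the host precursor that contains it cannot be told apart in these tables.

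On the opposite strand, Scarna9 (chr9:15130708-15130777) and snoU2_19 (chr9:15130908-15130983) lie in an intron of 5830418K08Rik. Scarna9 had 537, 2503 and 2838 Genome counts, and snoU2_19 had 74, 208 and 185. The host 5830418K08Rik had 77, 286 and 399 Genome counts, fewer than Scarna9 in each library, and 503, 1090 and 1203 Ensembl-ID counts. Scarna9 was 4.81-fold (4.38 to 5.28) higher in the Malat1 library and 3.78-fold (3.45 to 4.14) higher in the Tfrc library than in the Actb library. Divided by the Genome totals of the libraries, the Malat1/Actb folds of snoZ40, snoU2_19 and Snord104 were below 1, at 0.867, 0.801 and 0.892.

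snoU83B (chr15:79910681-79910773, minus strand) lies in an intron of Rpl3, a protein of the large ribosomal subunit. It had 46, 507 and 243 counts, and its Malat1/Actb fold, 11.4 (8.41 to 15.4), was the highest of the 200 members. The Genome rows of Rpl3 held 260, 973 and 728 counts. Snord104 (chr11:106362307-106362376, plus strand), with 70, 219 and 221 counts, and Scarna17, with 81, 59 and 175 counts, lie in no annotated protein-coding gene. Scarna17 was the one small RNA lower in the Malat1 library than in the control by its point value, 0.752-fold, with an interval from 0.538 to 1.05 that includes 1.

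The next 5 members without an Ensembl-ID count were alanine tRNA entries of the same name on chromosomes 1, 2, 4, 5 and 11. They had 28 to 48 counts in the Actb library, 161 to 262 in the Malat1 library and 168 to 266 in the Tfrc library, and the range in the control lay below the range in each target library. Their Malat1/Actb folds were 4.26 to 7.16. Copies of 1 tRNA name can share reads, so how the counts are split among the 5 is uncertain.

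The remaining members without an Ensembl-ID count were Dnase2b, Prkg1, RP23-425D13 and 2 entries named by a transcript identifier. The annotation places ENSMUST00000119983 (chr11:76230236-76435816) in Abr, a regulator of small GTPases, and Abr also has an entry of its own with 1159 Ensembl-ID and 1453 Genome counts. It places ENSMUST00000102587 (chr11:69499752-69509351) in Tnfsf12, a ligand of the tumour necrosis factor family. For Abr, 1 gene was thus listed under 2 names, and its transcript-named entry holds Genome counts only.

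Beyond the small RNAs, what the members shared was intron length, which the selection did not use. Of the 200, 194 were found in the annotation and 187 of these have introns; 175 are protein coding, 8 are lincRNAs, 4 are processed transcripts and 7 are snoRNAs. The median total intron length was 314 kb in the 194 members and 23.7 kb in the 8531 other genes. Exonic length did not separate them, with a median of 4194 bp in the members and 4154 bp in the others. In 158 members (81.4%) the introns summed to at least 100 kb, against 12.8% of the other genes. Among genes with under 10 kb of introns, 2 of 2198 were members, whereas 83 of 227 genes with 300 to 1000 kb were members, as were 20 of 24 genes with 1000 kb or more. The median Genome share rose over the same classes from 7.16% to 96.5%, members and other genes together.

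**Figure D1:**
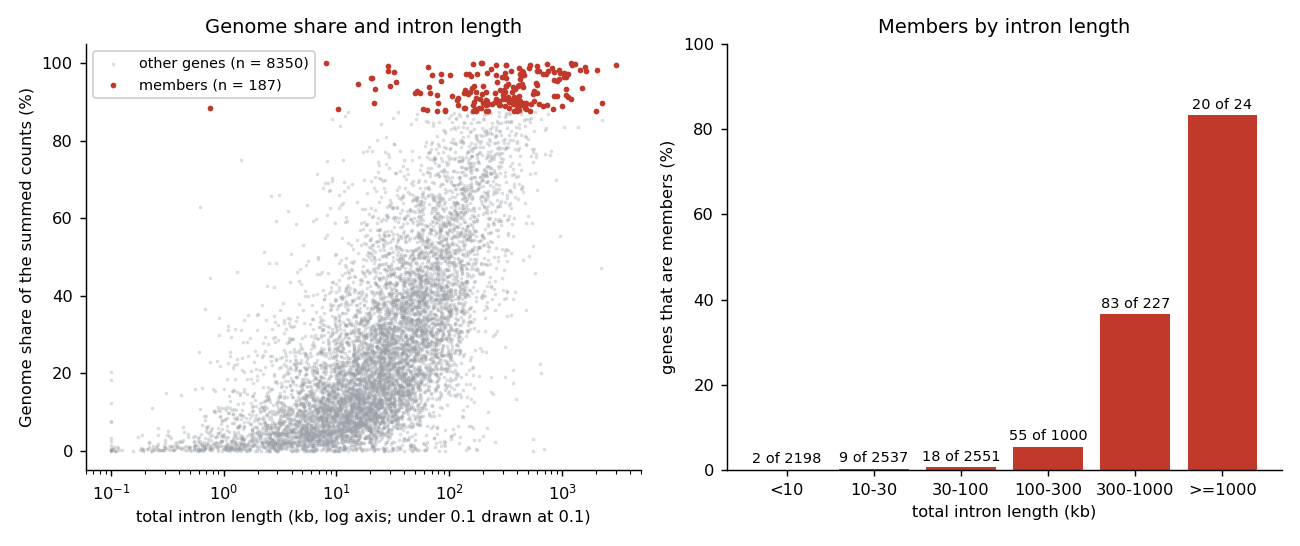
Left, Genome share (%) against total intron length (kb, log axis) for the members with introns (red, n = 187) and other genes with introns (grey, n = 8350). The red points lie at the top by selection, and their spread along the length axis was not used to choose them. Right, percentage of genes in each intron length class that are members, which is 83.3% for introns of 1000 kb or more and 36.6% for 300 to 1000 kb.

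The ends of the longest intron in any single annotated transcript are shown for 3 of the most counted members with introns, with 10 bases of exon and 20 of intron at the donor, 20 of intron and 10 of exon at the acceptor, and the GT and AG that the spliceosome reads in capitals.
Camk1d donor: tgcttagaaaGTaagtgccagaaagagagc
Camk1d acceptor: cctatttatttgtttcacAGtgtgtctggt
Fgfr2 donor: atttctatcgGTgagttactgtaaaatatc
Fgfr2 acceptor: ttcttcttctttgattgcAGtgtatccatc
Smyd3 donor: ctttgcaaaaGTaagtttgaagcttcttct
Smyd3 acceptor: gccccttcttatttccacAGgtgatctgca
These introns are at chr2:5283174-5486694 (204 kb), chr7:137316454-140273439 (2957 kb) and chr1:181024534-181335413 (311 kb), all on the minus strand. Introns that begin with GT and end with AG made up 97.6% of the 3592 introns of the members and 97.6% of the 128288 introns of other genes.

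Counts were also set against length. The members had a median of 3.59 Genome counts per kb of intron, lower than the 9.52 of other genes with introns. In the same genes with introns, Ensembl-ID counts per kb of exon were lower still by comparison, with a median of 11.9 in the members against 194. The ratio of the first density to the second was 0.234 in the members and 0.0491 in the others, and it was used by the selection in part, since both counts enter the Genome share. In 23 of the 183 members with both densities above 0, the introns held at least as many Genome counts per kb as the exons held Ensembl-ID counts per kb.

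**Figure D2:**
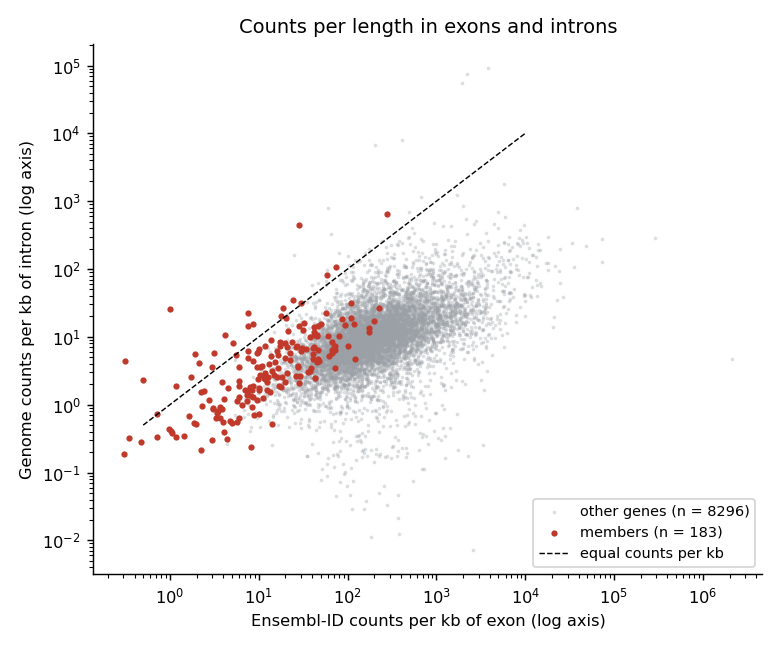
Genome counts per kb of intron against Ensembl-ID counts per kb of exon, both on log axes and summed over the 3 libraries, for members (red, n = 183) and other genes (grey, n = 8296) with both values above 0. The dashed line marks equal counts per kb. Most members lie at the lower left, with few counts per kb of exon.

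Among the members with many Genome counts per kb of intron was the processed transcript Spata5l1 at 443, whose annotated intron is 0.759 kb long. Ncrna00085, the host of Mir125a, had 105 and Camk1d, a calcium/calmodulin-dependent kinase, had 80.5. The lowest was 0.185 in Lrp1b, a very large receptor of the LDL receptor family, across 2035 kb of introns.

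Fgfr2, a fibroblast growth factor receptor, had 18555 Genome counts and 59 Ensembl-ID counts. Its annotated span in NCBIM37 (chr7:137305965-140315033, minus strand) covers 3009 kb, because 1 annotated intron reaches over 2957 kb, and 31 protein-coding genes lie wholly inside it. Of those 31, 12 had at least 300 counts, and they showed the reverse pattern: their median Genome share was 2.73% and none exceeded 7.18%. Tacc2, which encodes a spindle protein and has 178 kb of introns, had 1804 Ensembl-ID and 2 Genome counts. Bub3, a mitotic checkpoint protein, had 1768 and 0, and Ate1, an arginyltransferase with 124 kb of introns, had 762 and 27. All 12 together had 10619 Ensembl-ID and 197 Genome counts, fewer on Genome rows than the 18555 of Fgfr2 alone.

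The same held for some genes inside other members. Dnase2b (chr3:146067777-146259576, minus strand) had 693 Genome and no Ensembl-ID counts, and it contains Gng5, a G protein subunit with 1408 Ensembl-ID and 0 Genome counts, and Rpf1, a ribosome production factor with 803 and 3. The agouti gene a (chr2:154617138-154876748, plus strand) had 669 Genome counts, and Eif2s2, a translation initiation factor subunit inside it on the other strand, had 14268 Ensembl-ID and 30 Genome counts. Across all members, 37 contain a protein-coding gene (19.1%, against 3.84% of other genes). The members also span more of the genome, with a median of 318 kb against 28.1 kb, and genes of like span were not compared. The 25 contained genes with at least 300 counts had a median Genome share of 0.372%. Of 16 among them with at least 5 kb of introns, 11 were under 5% (68.8%), against 7.81% of 7286 protein-coding genes with that much intron. Most of these 16 lie inside Fgfr2, so the share mainly describes that 1 locus. Outside Fgfr2, Rpf1 at 0.372% and Eif2s2 at 0.210% were under 5%, and Haus3, inside Poln, was at 5.69%. Filip1l, with 87.0% inside 2610528E23Rik, and Spata1, with 32.1% inside Dnase2b, went the other way. Whether Genome reads from contained genes were listed under the member around them was not tested. Use of strand in the counting is not given in the sources used here, so reads of overlapping genes cannot be told apart.

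Some members themselves lie in a longer gene. Lrrc4, a synaptic adhesion protein, lies in Snd1, which had 4975 Ensembl-ID and 4849 Genome counts. Fam196a lies in Dock1, a guanine nucleotide exchange factor with 763 and 3136, and Alas2, the erythroid enzyme that begins haem synthesis, lies in the span of Apex2 with 639 and 173.

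The comparison of each target library with the Actb library addresses which RNAs were recovered with the target above the control. Both share the control library. In the Malat1/Actb comparison, the members had a median fold of 3.50 (middle 50% of members, 2.92 to 4.06), and 183 of 200 were at 2 or more. The background is 42.1% of 14572 genes that had 10 or more counts in each library, with a median fold of 1.82. On Genome counts alone the gap closed: 185 of 200 members were at 2 or more beside 88.6% of all genes, and the medians were 3.86 and 3.60. When Genome counts were divided by the Genome total of each library, the median was 1.06 in the members and 0.994 in all genes, and 3 members were at 2 or more beside 2.41% of all genes. Their few Ensembl-ID counts, which could be compared in 90 members, had a median fold of 1.67 against 1.41 for all genes.

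In the Tfrc/Actb comparison the medians were 3.03 in the members and 1.56 in all genes. A fold of 2 or more was reached by 181 of 200 members and by 28.6% of all genes. On Genome counts it was reached by 184 members and by 79.6% of all genes. Relative to the Genome totals the median was 1.12, and 4 members were at 2 or more beside 2.13% of all genes. In the Malat1/Tfrc comparison the medians were 1.23 in the members and 1.15 in all genes on both kinds of count. On Genome counts the order was the reverse, 1.23 in the members and 1.28 in all genes, and 5 of 200 members were at 2 or more beside 9.86% of all genes. Relative to the Genome totals the medians were 0.979 and 1.01. On both kinds of count a fold of 2 or more was found in 5 members (background 4.35%) and a fold of 0.5 or less in 6 (background 1.92%). The count of 6 was 15 relative to the Genome totals (background 4.07%) and 12 when scaled by the median ratio over genes (background 3.64%).

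**Figure D3:**
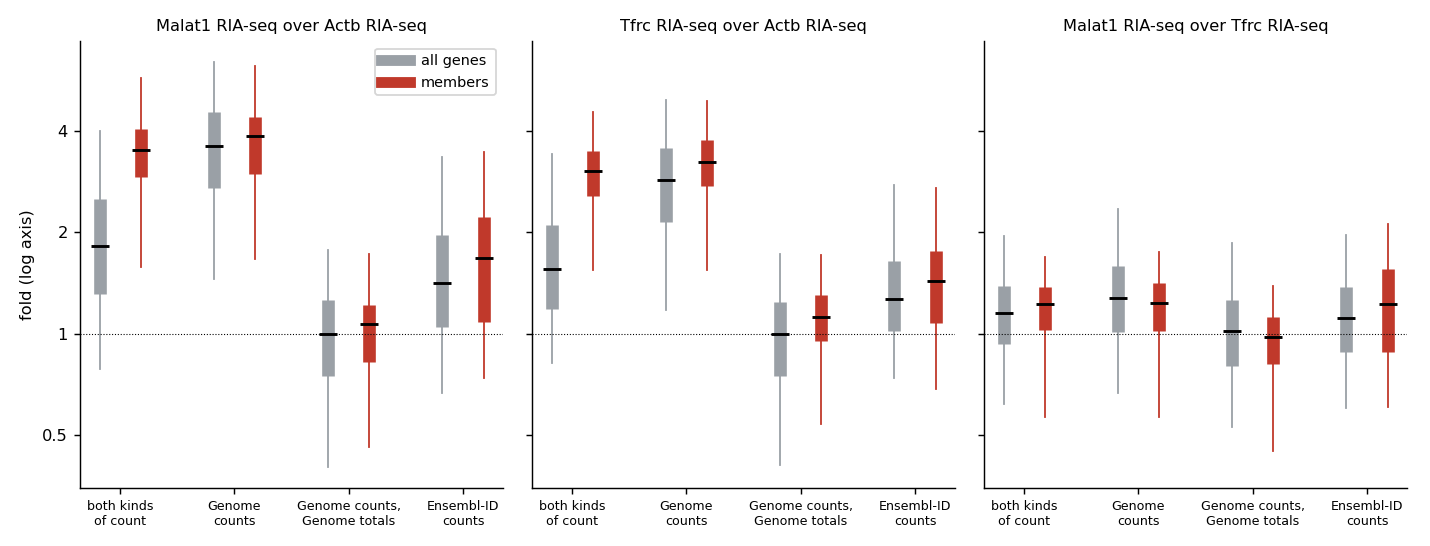
Folds (log axis) of all genes past the minimum of 10 counts (grey) and of the members (red) in 3 comparisons and by 4 ways of counting. Ticks are medians, thick bars hold the middle 50% of genes and thin lines run from the 5th to the 95th percentile. For Malat1/Actb the members' median is 3.50 on both kinds of count and 1.06 on Genome counts divided by Genome totals.

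The most counted members with the common pattern were long genes of unrelated roles. Fgfr2 had 1992 Genome counts in the Actb library, 8431 in the Malat1 library and 8132 in the Tfrc library, which gave folds over the control of 4.37 (4.16 to 4.59) and 2.92 (2.78 to 3.07). The lincRNA Pvt1 (chr15:61869542-62209651, plus strand), which neighbours Myc, had 913, 4998 and 4624, with folds of 5.65 (5.27 to 6.06) and 3.62 (3.37 to 3.89). Smyd3 (chr1:180882091-181448172, minus strand), a lysine methyltransferase, had 1110, 4714 and 4737. These 3 genes were lowest in the control. It held more counts in all than the Malat1 library but fewer Genome counts, 546772 against 1918749. On Genome counts the median Malat1/Actb and Tfrc/Actb folds of all genes were 3.60 and 2.86. Arl15, a small GTPase of the ARF family, had 1077, 4033 and 4513 Genome counts. Magi1, a scaffold of tight junctions, had 947, 3696 and 4211. For all 5 the Malat1/Tfrc fold on Genome counts lay between 1.27 and 1.56.

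Camk1d (chr2:5214503-5635561, minus strand) held more counts than any other member and went against most of them. It had 9230 Genome counts in the Actb library, 5606 in the Malat1 library and 18480 in the Tfrc library. Its Malat1/Actb fold was 0.627 (0.607 to 0.648) and its Tfrc/Actb fold was 1.43 (1.40 to 1.47). Its Ensembl-ID counts, 96, 143 and 194, did not show the fall in the Malat1 library. The tables give no positions within a gene, and where in Camk1d its Genome counts lie could not be seen. The cause was not tested. Camk1d alone moved the sum over the members: 8.998% of Genome counts in the Actb library, 6.92% in the Malat1 library and 7.87% in the Tfrc library fell on the members, and 7.31%, 6.63% and 7.03% without it.

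Myo3a (chr2:22149130-22473772, plus strand), a myosin of hair cells, had 199, 129 and 408 Genome counts and 4 Ensembl-ID counts in all. An intron of Myo3a holds a copy of mitochondrial DNA (chr2:22442808-22446054), which aligned to the mitochondrial genome over 3260 bases with 97.4% identity. Among 194 member loci searched for matches of at least 100 bases and 90% identity, it was the 1 locus with such a match. The start of the copy is shown above the mitochondrial sequence, read on the plus strand of chromosome 2, with the 3 differing bases of 120 in capitals.
Myo3a copy: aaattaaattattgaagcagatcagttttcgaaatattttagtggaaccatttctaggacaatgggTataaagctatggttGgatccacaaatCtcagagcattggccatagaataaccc
mitochondrial genome: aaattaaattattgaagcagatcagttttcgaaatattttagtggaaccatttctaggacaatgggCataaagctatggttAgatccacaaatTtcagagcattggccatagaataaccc
These stretches are chr2:22442808-22442927 and chrM:7580-7699. The pseudogenes annotated inside the copy took many reads, with 36837 counts over the libraries for Gm13341 and 30538 for Gm13340, and Gm13341 had 7416, 7052 and 22369. Nearly all of these were Ensembl-ID counts, 36837 for Gm13341 and 29885 for Gm13340, unlike those of Myo3a. The Malat1/Tfrc fold was 0.457 (0.375 to 0.557) for Myo3a and 0.604 for the sum of 13 genes with mt- symbols. The Malat1/Actb fold of that sum was 1.01, whereas Myo3a had 19.1 CPM in the control and 12.8 CPM in the Malat1 library. The part of mitochondrial RNA in the Myo3a counts was not tested.

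Lrp1b (chr2:40450768-42509118, minus strand) had 34 and 30 Genome counts in the Actb and Malat1 libraries and 313 in the Tfrc library. It had the highest fold of the members for Tfrc/Actb on Genome counts, 6.58 (4.62 to 9.38), and the lowest for Malat1/Tfrc, 0.138 (0.0952 to 0.201). Between the Malat1 and Actb libraries it did not differ beyond counting error, with a fold of 0.911 (0.558 to 1.49). Prkg1, a cGMP-dependent kinase (chr19:30643728-31839312, minus strand), had 27, 77 and 218 counts and a Tfrc/Actb fold of 5.77 (3.87 to 8.61). Members had to reach a minimum of counts summed over the libraries. On both kinds of count, 316 of 384 counts of Lrp1b and 218 of 322 of Prkg1 were from the Tfrc library. Without that library neither gene would have reached the minimum, which thus favours such folds among genes with few counts. The size of this effect was not tested.

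High folds over the control also came from members with few counts in it. The processed transcript 4930556N13Rik had 29, 219 and 190 Genome counts and a Malat1/Actb fold of 7.80 (5.29 to 11.5). Fam78b had 20, 157 and 132 and a fold of 8.10 (5.09 to 12.9). The lincRNA 9430091E24Rik had 110, 136 and 161, and both of its folds over the control had intervals that include 1. With its Ensembl-ID counts added, its Malat1/Actb interval, 1.08 to 1.76, no longer includes 1.

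By Genome counts, 196 of 200 members were higher in the Tfrc library than in the control, as were 96.9% of 8344 genes. The other 4 members were lower, no more often than genes at large, and 3 of them are described here. Sspn (chr6:145880161-145913743, plus strand), which encodes sarcospan of the dystrophin complex, had 177, 435 and 122 Genome counts, and its Malat1/Tfrc fold, 5.15 (4.21 to 6.29), was the highest of the members. Cd44 (chr2:102651298-102741822, minus strand), a hyaluronan receptor, had 211, 157 and 92, and a Tfrc/Actb fold of 0.312 (0.244 to 0.398). Cd44 was also lower in the Malat1 library, at 0.768 (0.625 to 0.944). Gphn, the inhibitory synapse scaffold gephyrin (chr12:79327642-79785754, plus strand), had 1531, 1563 and 1675 and a fold of 0.782 (0.730 to 0.838).

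**Figure D4:**
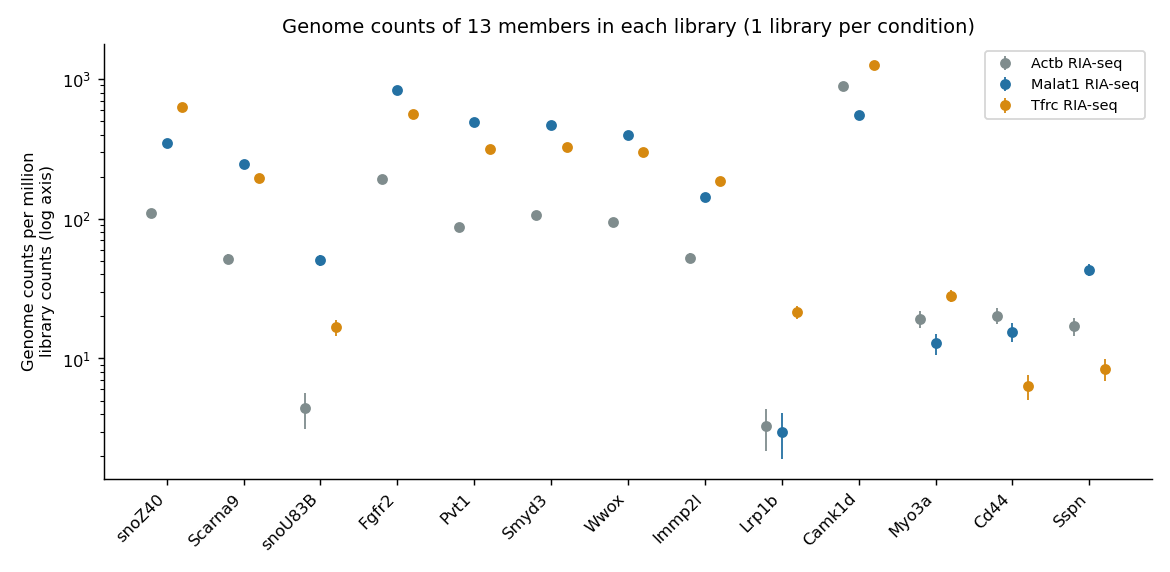
Genome counts in CPM (log axis) of 13 members in the Actb (grey), Malat1 (blue) and Tfrc (orange) libraries. Points are single libraries and bars are 95% counting intervals. From snoZ40 to Immp2l both target libraries lie above the control, whereas Camk1d, Myo3a and Cd44 are lower in the Malat1 library than in the control.

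Among 17 gene lists drawn by symbol, the one that met the members most was that of giant genes at common fragile sites, of which 15 of 20 were members (75%, against 2.28% of the 8762 genes). This list was chosen with earlier results known and its genes are long by definition. Immp2l, a peptidase of the inner mitochondrial membrane (chr12:41750677-43056575, plus strand), had 548, 1439 and 2692 Genome counts. Fhit, a dinucleotide hydrolase and tumour suppressor, had 114, 314 and 603. Park2, the ubiquitin ligase parkin, had 59, 115 and 289. In these 3, the Tfrc library was the highest library also as a share of its total, with Malat1/Tfrc folds of 0.772, 0.752 and 0.575. Others of the list had the opposite order: Wwox, an oxidoreductase, had 983, 4007 and 4386 counts and a fold of 1.32, and Auts2, a neurodevelopmental regulator, had 801, 3211 and 3776 and a fold of 1.23. In all, 10 of the 15 were below 1. Genes with few counts pass the minimum on summed counts more readily when high in the Tfrc library, and its part here was not tested. Of 11544 genes with 10 or more Genome counts in both target libraries, 76.1% were above 1, as were 76.5% of the 200 members. Csmd1, a complement control protein with 1624 kb of introns, had 66, 95 and 297, Cntnap2, a neurexin-like protein, had 53, 180 and 291, and Macrod2, an ADP-ribose hydrolase, had 109, 319 and 609. Rora, a nuclear receptor, had 342, 1576 and 1654 and lay above 1, at 1.38. The 5 listed genes that are not members were Large, Gpc6, Exoc4, Nbea and Dmd, and Dmd, the dystrophin gene with 2233 kb of introns, had a Genome share of 47.3%.

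Ion channels and ionotropic receptors gave 9 members of 53 genes (17.0%, against 2.28% of the 8762 genes). Kcnq1, a potassium channel (chr7:150293159-150612955, plus strand), had 367, 1456 and 1592 Genome counts and 13 Ensembl-ID counts. The selection leaves out by name the antisense RNA within it, Kcnq1ot1, but no counts were listed under that symbol. Whether the Kcnq1 counts hold reads of that RNA was not tested, and Kcnq1 reads from either strand cannot be told apart. Grik4, a kainate receptor subunit, had 201, 781 and 848, and Cacna1c, a calcium channel subunit, had 50, 193 and 302. In each of the 3, the control was the lowest library, as in most genes. On Genome counts, 98.3% of all genes had a Malat1/Actb fold above 1, and 96.9% had a Tfrc/Actb fold above 1.

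Ror2, a receptor tyrosine kinase of Wnt signalling, had 249, 1229 and 1237 Genome counts, and 2 of 16 receptor tyrosine kinases were members (12.5%). Ptprg, a receptor phosphatase, had 704, 2967 and 3365, and 2 of 9 such phosphatases were members (22.2%). Pde4d, which degrades cyclic AMP, had 601, 2454 and 2573 and was 1 of 9 phosphodiesterases. Of 28 genes in the protein kinase list 4 were members, with Prkce at 210, 833 and 689.

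Cell adhesion gave 5 of 37, with Cdh4, a cadherin, at 126, 617 and 590 Genome counts, and Ctnnd2, a catenin of synapses, at 89, 302 and 453. Polarity and junction scaffolds gave 4 of 31, among them Dlgap1 and Dlgap2 of the postsynaptic density. Dlgap1 had 134, 469 and 473, Dlgap2 had 106, 305 and 455, and the control was the lowest library for both, as for most genes. Matrix genes and glypicans gave 5 of 41, with Col13a1, a transmembrane collagen, at 133, 618 and 612. Ubiquitin ligases gave 6 of 232, small GTPase regulators, Dock2 and Dock4 among them, 4 of 116, and axon guidance genes 1 of 25, the ligand Slit3. Of 195 chromatin and transcription regulators, 2 were members, namely Cux2 and Sox5. Of 136 RNA-binding and splicing regulators 1 was a member, namely Celf2, as were 1 of 113 cilium genes, and 2 of 72 motor and cytoskeleton genes. RIKEN-named genes gave 16 of 525. The shares of the ubiquitin ligases (2.59%), small GTPase regulators (3.45%) and RIKEN names (3.05%) were near the 2.28% of all 8762 genes. No list was compared with genes of like intron length, so gene class and intron length cannot be told apart here.

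Members with few Genome counts per kb of intron were split between the target libraries differently from those with many. When 187 members were divided by this density into 3 classes, the median Malat1/Tfrc fold on Genome counts was 0.985 in the lowest class, 1.28 in the middle and 1.30 in the highest. Of 62 members in the lowest class, 31 were below 1, against 6 of 62 in the middle and 8 of 63 in the highest. Other genes in the same density ranges had medians of 1.07, 1.21 and 1.32, so the order was not particular to the members. Spearman's rank correlation between density and fold was 0.405 across the 187 members. The points share the libraries and the counts from which both measures were made. In the lowest class the Tfrc/Actb fold had a median of 3.50 against 3.01 for other genes in that range. A gene with few counts passes the minimum on summed counts more readily when it is high in the Tfrc library, the largest library. This lowers Malat1/Tfrc folds among genes near the minimum. The other genes passed the same minimum, so they do not control for it. Its part in the order of the classes was not tested.

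**Figure D5:**
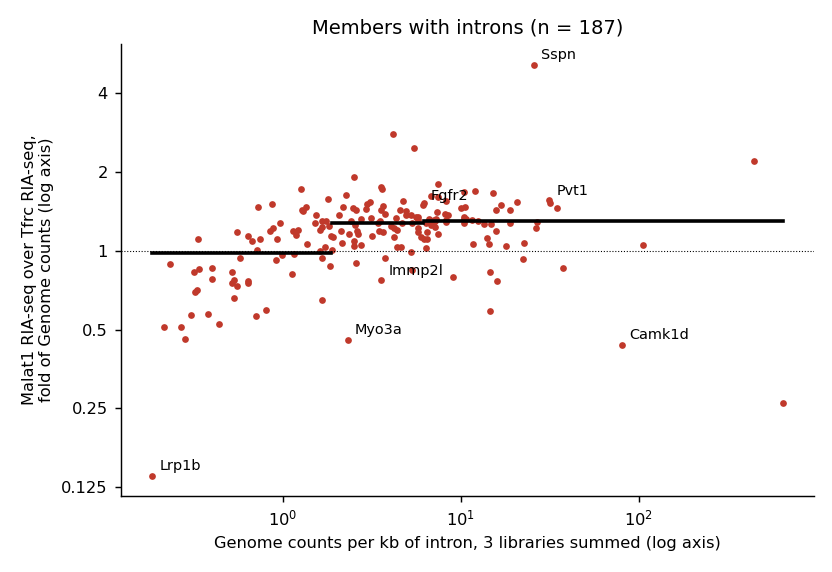
Fold of Genome counts of Malat1/Tfrc (log axis) against Genome counts per kb of intron (log axis) for the 187 members with introns, each point 1 gene. Black lines are the medians of the classes, 0.985, 1.28 and 1.30. Lrp1b is at the lower left, and Camk1d lies below 1 at high density.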

How the data were processed

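The authors deposited 1 table of raw read counts per library, whole numbers without normalization. The submitters' processing notes name Bowtie 0.12.7 and the builds mm9 and NCBIM37, with no role given, and the counting rule is not given in the sources used here. Samples were grouped by their labels. Genes were placed on the GENCODE annotation of NCBIM37, with exons of all transcripts merged and the remainder of the span taken as introns. Folds are ratios of shares of the library total with a pseudocount of 0, for genes that had 10 or more counts in each library. Intervals were computed on the log scale from both counts. The depth sets a floor, 3 counts, of 0.206 to 0.298 CPM. The fold computation was tested on simulated counts. Members and gene lists were chosen with earlier results of these data known. Genes were named by rule: the highest Genome shares, counts, folds and intron lengths, the edge of the selection, and the most counted of each list. Cd44 and Sspn come from the fold rule, and contained or host genes, RP23-425D13, the agouti gene a, Alas2, Lrrc4, Fam196a, Gphn, Fhit, Dmd and Gm13341 were named after their values were seen. Other scalings, count types, minimums and selections were tried. Python 3.11.15, pandas 2.3.3, BLAST+ 2.17.0 and samtools 1.23.1 were used. Results on 1 member by name are not reported here.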

Additional observations from a re-analysis of the deposited data

How the results depend on the processing

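No paired analysis was possible because each condition has 1 library. The cause of the changes below was not tested beyond how each setting is built. The members' median Malat1/Actb fold of 3.50 was 1.92 when scaled by the median ratio over genes, 1.93 by the 75th percentile, 1.06 on Genome counts over Genome totals, 1.67 on Ensembl-ID counts and 2.19 without the 10 most counted genes in the library total. The 183 members at 2 or more became 91, 92, 3 and 29 under the first 4 of these, where Ensembl-ID counts could be compared in 90 members. The shares of all genes at 2 or more under these 4 were 7.38%, 7.53%, 2.41% and 24.0%. The median Tfrc/Actb fold of 3.03 became 1.94, 1.90, 1.12, 1.43 and 2.16 under the same 5 settings. Its count of 181 became 88, 77, 4 and 19 under the first 4, the last among 94 members compared. The shares of all genes there were 6.90%, 6.41%, 2.13% and 14.1%. The median Malat1/Tfrc fold of 1.23 fell below 1, to 0.979, over Genome totals. Its count of 5 at 2 or more became 3 there, beside 3.69% of all genes. On Ensembl-ID counts it became 10 of 121 members, beside 4.41% of all genes. The 6 members at 0.5 or less became 12, 11, 15, 1 and 11 under the same 5 settings in the order given for Malat1/Actb. The shares of all genes at 0.5 or less were 3.64%, 3.51%, 4.07%, 1.90% and 3.52%. Genome counts only, a pseudocount of 1 and other minimums moved none of these counts by over 1.5 times. These settings also kept each median between the members' median lower and upper interval bounds. Those bounds reflect the counting error of a typical single member, and an interval of the median itself was not computed. The median Genome share of the selection was 91.1% from the Actb library alone, 98.8% and 84.9% with minimums of 100 and 1000 counts, and 97.4% and 87.6% with 100 and 400 members. Of the 200 members, 77 and 82 were shared with the selections at those minimums, and 161, 176 and 186 with selections from the Actb, Malat1 and Tfrc libraries alone.

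Among named members with a fold of at least 2 or at most 0.5 on both kinds of count summed, these changed direction. Over Genome totals the Malat1/Actb folds were 0.855 for Celf2, 0.968 for Cntnap2, 0.967 for Ctnnd2, 0.997 for Dlgap1, 0.820 for Dlgap2, 0.741 for Dnase2b, 0.760 for Dock2, 0.785 for Fhit, 0.988 for Lrrc4, 0.575 for the agouti gene a, 0.836 for Dock4, 0.867 for snoZ40, 0.892 for Snord104, 0.801 for snoU2_19, 0.742 for ENSMUST00000102587, 0.658 for ENSMUST00000119983, 0.748 for Immp2l, 0.834 for Macrod2, 0.813 for Prkg1, 0.939 for Slit3, 0.591 for Sox5 and 0.700 for Sspn. The Tfrc/Actb folds were 0.805 for the agouti gene a, 0.878 for Dlgap1, 0.866 for Dock2, 0.843 for Dock4, 0.785 for Snord104, 0.871 for SNORA25 and 0.964 for Slit3. On Ensembl-ID counts the Malat1/Actb folds were 0.697 for 2610528E23Rik, 0.964 for Cntnap2, 0.989 for Macrod2, 0.720 for Prkce and 0.756 for Ror2. The Tfrc/Actb folds were 0.680 for 2610528E23Rik, 0.789 for Macrod2 and 0.891 for Smyd3, and the Malat1/Tfrc fold was 1.06 for Camk1d. Of the other values of named members, 425 moved and 251 stayed within their counting interval, without a change of direction. Depth limits members such as Lrp1b, with 30 to 34 Genome counts in the Actb and Malat1 libraries.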
